A study of Mus musculus with 8 samples.

Results

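The genes described here encode 35 aminoacyl-tRNA synthetases, 19 that work in the cytosol and 16 that work in the mitochondrion. They were chosen by gene name from the non-control probes of each array, the mitochondrial enzymes being those whose name ends in 2. They are 35 of 27597 genes named on the array and are represented by 69 of its 41174 probes. Pancreatic lymph nodes of 8 BALB/c mice carrying a Deaf1 knockout were compared with those of BALB/c wild-type littermates at 4, 12 and 30 weeks of age. Deaf1 is a transcription factor, and the pancreatic node is the node that drains the pancreas. There were 2 knockout mice at 4 weeks and 3 each at 12 and 30 weeks. RNA of each knockout mouse (Cy5) was hybridised with RNA pooled from wild-type littermates of its age (Cy3), 2 mice to a pool at 4 weeks and 3 at 12 and 30 weeks. Whole nodes were extracted, so fewer cells of a type and less RNA per cell cannot be told apart.

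An aminoacyl-tRNA synthetase joins an amino acid to its transfer RNA, the step that fixes which amino acid a codon stands for. Most cells use separate nuclear genes for the enzymes of the cytosol and of the mitochondrion, while the glycyl and lysyl enzymes of both places come from the same genes, Gars and Kars. Several cytosolic enzymes are held with the scaffold proteins Aimp1, Aimp2 and Eef1e1 in the multi-synthetase complex, and many cytosolic synthetase genes are induced by Atf4, the transcription factor of the amino acid response.

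Ratios below are knockout over wild type on the log2 scale, unless a level is named, and the number after ± is the standard error from the model. The brightest probe above background stood for its gene, all 35 members passed the filter on dim probes, and a gene is called when its Benjamini-Hochberg adjusted p over the 18410 genes tested is under 0.05 (limma). No array had swapped dyes and none compared a wild-type mouse with a pool, so a bias between the dyes is part of every ratio tested at a single age, and variation among control mice is not measured. Precision is limited by how few arrays there are. The 4-week arrays lay on slide 1, read on a scanner of their own, the 12-week arrays and replicate 1 of 30 weeks on slide 2, and replicates 2 and 3 of 30 weeks on slide 3, so the 4-week group and its slide cannot be told apart. Of the 8 arrays 2 stood apart, both labelled replicate 2. At 12 weeks, Xist had a ratio of 5.32 and the Y-linked gene Ddx3y one of −3.89 in replicate 2, the pattern by which the sexes differ. At 30 weeks, 11 acinar cell genes of the pancreas had a median ratio of 3.95 in replicate 2, against −4.09 in replicate 1 and −4.50 in replicate 3. Deaf1 itself had ratios of −0.17 ± 0.072 at 4 weeks, 0.34 ± 0.059 at 12 weeks and 0.10 ± 0.059 at 30 weeks (adjusted p = 0.127, 0.0344 and 0.225). The labels do not state the deleted part, so its probe does not check the genotype.

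At 4 weeks the cytosolic enzymes moved both ways. Lars (leucyl), Dars (aspartyl), Iars (isoleucyl) and Tars (threonyl enzyme) were higher in knockout nodes, while Aars (alanyl), Sars (seryl) and Farsa (the alpha chain of the phenylalanyl enzyme) were lower, together with the mitochondrial glutamyl enzyme Ears2. These were 8 of 35 members, or 22.9%, against 22.7% of all genes tested, so the share called was near the background. Of all genes, 15.3% were called higher and 7.38% lower. The median ratio was −0.016 over the cytosolic members, −0.037 over the mitochondrial members and 0.024 over all genes tested.

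Lars had the largest rise at this age. Its log2 level was 12.78 and 12.38 in the 2 knockout nodes, against 11.88 and 11.76 in the wild-type channels, which gave ratios of 0.90 and 0.63. Its mean ratio was 0.76 ± 0.101 (adjusted p = 0.00191). Both knockout levels lay above both wild-type readings, which are of pooled RNA and do not show the spread of control mice.

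Dars had levels of 10.33 and 10.24 in knockout nodes, against 9.60 and 9.73 in the wild-type channels. Its ratio was 0.62 ± 0.156 (adjusted p = 0.0241). Iars rose by 0.42 ± 0.074 (ratios 0.50 and 0.34, adjusted p = 0.00605), while its other probes had 0.08 and 0.06. Like Lars and Dars, Iars encodes an enzyme of the multi-synthetase complex. Tars, whose product is not held in that complex, had ratios of 0.31 and 0.34 (mean 0.32 ± 0.074, adjusted p = 0.0167).

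Among the members that were lower, Aars had ratios of −0.57 and −0.38 (mean −0.47 ± 0.127, adjusted p = 0.0307). Sars had ratios of −0.41 and −0.35 (mean −0.38 ± 0.081, adjusted p = 0.0131). Farsa had ratios of −0.40 and −0.21 (mean −0.30 ± 0.092, adjusted p = 0.0488). All 3 lay below 0 on both arrays. The other probes of Farsa had −0.34 and 0.05 at this age and −0.38 and 0.18 at 30 weeks, so its sign depends on the probe. Farsb, the partner chain with which Farsa forms the working enzyme, had ratios of 0.27 and 0.16 and was not called (0.21 ± 0.104, adjusted p = 0.177).

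Only Ears2 was called among the 16 mitochondrial members at 4 weeks, with ratios of −0.44 and −0.24 (mean −0.34 ± 0.102, adjusted p = 0.0452). Its other probe, made from a cDNA clone, had 0.12 at this age and 0.09 at 30 weeks. Vars2, the mitochondrial valyl enzyme, had a mean ratio further from 0, −0.50 ± 0.162, but did not pass the test (adjusted p = 0.0581), its arrays standing at −0.72 and −0.28. The 4-week calls rested on 2 arrays. Without replicate 1 the class medians were −0.047 (cytosolic) and −0.006 (mitochondrial), and without replicate 2 they were 0.012 and −0.048. With each array centred on its median in place of loess, which corrects for brightness, 25 members were called higher and 0 lower, 53% of all genes were called and their median was 0.489. Relative to that median, Ears2 lay at −0.22, Aars at −0.05, Sars at 0.05 and Farsa at 0.0049.

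**Figure D1:**
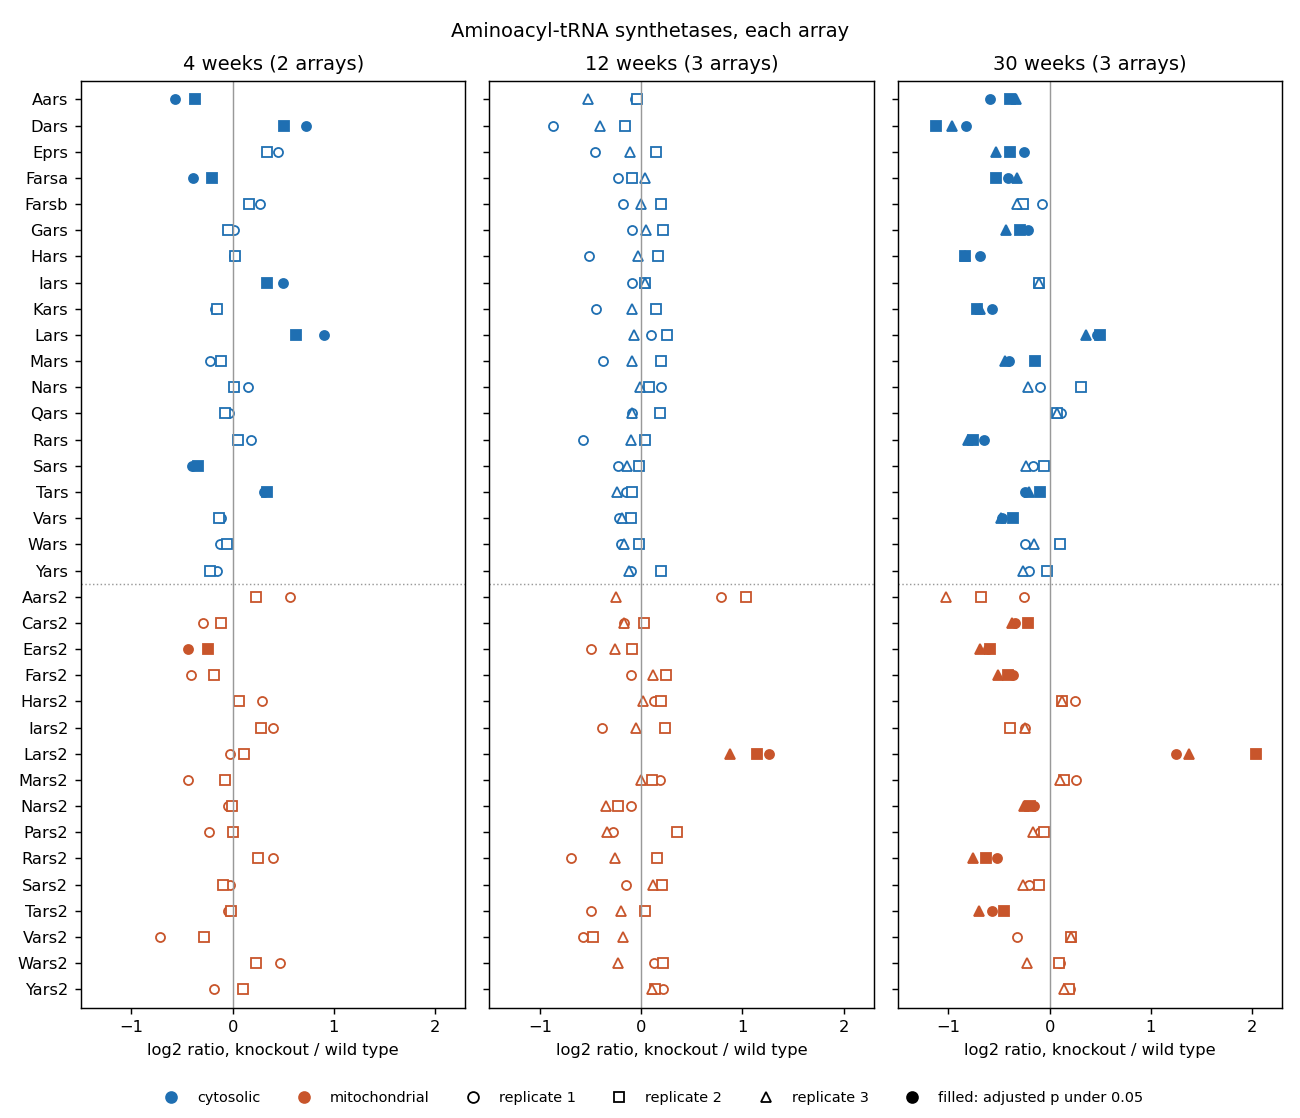
Log2 ratio of knockout over wild type (x axis) for each of the 35 synthetases (y axis, cytosolic above the dotted line, mitochondrial below it) at 4, 12 and 30 weeks. Each point is 1 array and filled points mark members with an adjusted p under 0.05; at 30 weeks 17 members are called lower and Lars and Lars2 higher.

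At 12 weeks only Lars2 was called, 1 of 35 members or 2.86%, against 2.61% of all genes tested (1.23% higher and 1.37% lower). It encodes the mitochondrial leucyl enzyme by name, and its probe is described apart from the others below. The cytosolic members had a median of −0.127 and the mitochondrial members one of −0.014. Array by array, the members did not move together: 12 of 19 cytosolic and 13 of 16 mitochondrial members lay above 0 in replicate 2, against 2 and 6 in replicate 1 and 4 and 6 in replicate 3. Without replicate 2, the array whose Xist ratio stood apart, 4 members and 10.1% of all genes were called. Without replicate 1, or without replicate 3 of 30 weeks, the count was 0, where 0.0978% and 0.168% of all genes were called. With median centring 26 members were called higher and 0 lower, where the median of all genes was 0.408 and 56% of them were called.

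Dars was the lowest member at 12 weeks, with ratios of −0.88, −0.16 and −0.40 (mean −0.48 ± 0.127, adjusted p = 0.0749). It lay below 0 on all 3 arrays but missed the threshold. Aars2, the mitochondrial alanyl enzyme, was the most variable, with ratios of 0.79, 1.04 and −0.25 (mean 0.53 ± 0.231, adjusted p = 0.196).

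At 30 weeks 17 of 35 members were lower in knockout nodes and 2 were higher. The 17 were 11 cytosolic and 6 mitochondrial enzymes. The 2 called higher by their brightest probes were Lars and Lars2, by name the leucyl enzymes of the cytosol and the mitochondrion. Neither rise is secure. The other mRNA probes of Lars had 0.91 and −0.22 at this age, so its sign depends on the probe. The share of ribosomal RNA in the signal of the only Lars2 probe was not tested. In either direction 54.3% of members were called, against 39.1% of all genes tested. Called lower were 48.6% of members, against 18.4% of all genes (20.7% of all genes were called higher). The median ratio was −0.309 over cytosolic members and −0.195 over mitochondrial members, against 0.028 over all genes tested. On all 3 arrays 25 of 35 members lay below 0, or 71.4%, where 32.7% of the 18384 genes with a value on every array did so.

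Dars fell furthest. Its level was 8.92, 8.70 and 8.75 in the 3 knockout nodes, against 9.75, 9.82 and 9.71 in the wild-type channels. The ratios were −0.83, −1.13 and −0.96, with a mean of −0.97 ± 0.127 or a 0.51-fold level (adjusted p = 0.00134). All 3 knockout levels lay below the 3 wild-type readings, which are of pooled RNA and do not show the spread of control mice. The letters of another Dars probe that matches the reference mRNA are given here. Like the brightest probe, it crosses an intron on the genome and so reads spliced RNA. It lies within chr1:130241253-130242913 (mm8, minus strand).
Dars, mRNA probe other than the brightest: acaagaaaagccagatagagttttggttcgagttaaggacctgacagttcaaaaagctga
This probe had mean ratios of 0.53 at 4 weeks, −0.53 at 12 weeks and −0.67 at 30 weeks, each on the same side of 0 as the brightest probe.

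Hars, the cytosolic histidyl enzyme, had ratios of −0.69, −0.84 and −0.84 (mean −0.79 ± 0.114, adjusted p = 0.00175), and its other probe, from a cDNA clone, had a mean of 0.06. Rars, the arginyl enzyme, had ratios of −0.65, −0.76 and −0.80 (mean −0.74 ± 0.109, adjusted p = 0.0019). Kars, the lysyl enzyme of both compartments, had ratios of −0.57, −0.72 and −0.69 (mean −0.66 ± 0.101, adjusted p = 0.00211). For each of these 3 genes every array was below −0.5. The Rars probe, within chr11:35663350-35664526, crosses an intron, whereas the Kars probe, chr8:114883182-114883241, lies in a single stretch of genome (mm8, minus strand for both).
Rars, brightest probe: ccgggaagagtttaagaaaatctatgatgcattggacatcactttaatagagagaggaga
Kars, brightest probe: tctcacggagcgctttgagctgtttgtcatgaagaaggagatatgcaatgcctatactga

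The other 7 cytosolic members called lower had smaller ratios, between −0.18 and −0.44. They were Aars (−0.44 ± 0.104), Vars for valine (−0.44 ± 0.058), Farsa (−0.42 ± 0.075), Eprs, which joins both glutamate and proline (−0.39 ± 0.109), Mars for methionine (−0.33 ± 0.107), Gars for glycine (−0.31 ± 0.075) and Tars (−0.18 ± 0.060). Lars went the other way, with ratios of 0.47, 0.49 and 0.36 (mean 0.44 ± 0.083, adjusted p = 0.00443). Not called were Farsb, Iars, Nars, Qars, Sars, Wars and Yars, with means between −0.22 and 0.09. Another RefSeq mRNA probe had −0.46 for Qars, −0.40 for Iars and −0.24 for Wars. Wars, the tryptophanyl enzyme known for its induction by interferon gamma in human cells, had ratios of −0.24, 0.10 and −0.16.

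Of the mitochondrial members at 30 weeks, Rars2 (arginyl) had ratios of −0.52, −0.63 and −0.76 (mean −0.64 ± 0.137, adjusted p = 0.00747). Ears2 had ratios of −0.61, −0.59 and −0.69 (mean −0.63 ± 0.084, adjusted p = 0.00138) and was the only mitochondrial member called lower at both 4 and 30 weeks. Tars2 (threonyl, −0.57 ± 0.097), Fars2 (phenylalanyl, −0.43 ± 0.081), Cars2 (cysteinyl, −0.31 ± 0.070) and Nars2 (asparaginyl, −0.20 ± 0.065) were also lower. The other probe had a mean of 0.098 for Cars2 and −0.029 for Nars2, so the sign for Cars2 depends on the probe. Aars2 had the lowest mean, −0.65 ± 0.231, with arrays at −0.25, −0.68 and −1.02, and was not called (adjusted p = 0.0535). Hars2, Mars2 and Yars2 lay above 0 on all 3 arrays with means of 0.16, 0.17 and 0.18, and none was called.

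At 30 weeks, the 2 arrays of slide 3 gave 16 members lower and 2 higher when fitted alone (30% of all genes called), and 11 lower and 2 higher when replicate 1 was left out of the fit to all ages (22.4% of all genes). Without replicate 2, the array with high acinar genes, the count was 14 lower and 2 higher (29.2% of all genes), and without replicate 3 it was 10 lower and 2 higher (21.4%). With median centring in place of loess it was 3 lower and 3 higher, with class medians of −0.036 (cytosolic) and −0.029 (mitochondrial) where the median of all genes was 0.155. On that scaling 28% of all genes tested were called, and 3.34% were called lower. Loess sets each gene against genes of like brightness, and median centring sets it against all genes of the array.

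The classes were set against each other by their medians. Over single arrays the cytosolic median minus the mitochondrial median was 0.060 and −0.041 at 4 weeks, −0.073, −0.098 and 0.082 at 12 weeks, and −0.020, −0.113 and −0.080 at 30 weeks. Both signs occurred at 4 and at 12 weeks, and at 30 weeks all 3 arrays were below 0 by up to 0.113. Taken over the mean ratios of the arrays, the difference was 0.021, −0.113 and −0.114 at 4, 12 and 30 weeks, with an SD between arrays of 0.072, 0.098 and 0.047. At 30 weeks 11 of 19 cytosolic members were called lower (57.9%), against 6 of 16 mitochondrial members (37.5%). This difference between the classes was not tested.

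**Figure D2:**
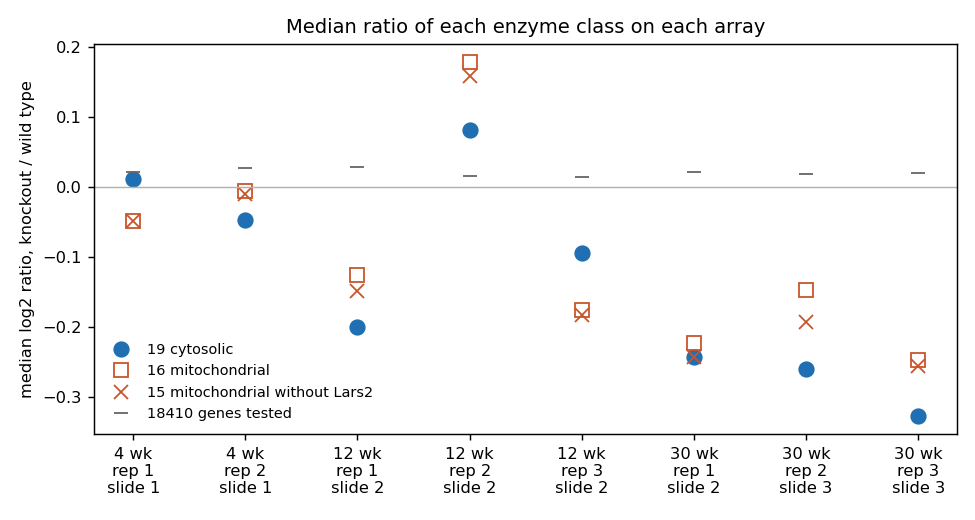
Median log2 ratio of knockout over wild type (y axis) of the cytosolic members, the mitochondrial members with and without Lars2, and all genes tested, on each of the 8 arrays (x axis, with age, replicate and slide). Both class medians are below all genes on the 3 arrays of 30 weeks, and above them only in replicate 2 of 12 weeks.

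For 12 amino acids both enzymes were measured under paired names, and their order varied. At 30 weeks the cytosolic gene was lower than its mitochondrial namesake in 7 of the 12 pairs and higher in 5, with a median difference of −0.096. Hars and Hars2 were furthest apart among the pairs other than the leucyl one, at −0.79 for Hars and 0.16 for Hars2. Both enzymes were called lower in 2 pairs: the arginyl pair, at −0.74 for Rars and −0.64 for Rars2, and the threonyl pair, at −0.18 for Tars and −0.57 for Tars2.

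The 8 members whose enzymes sit in the multi-synthetase complex (Eprs, Iars, Lars, Mars, Qars, Rars, Kars and Dars) were grouped after their values were seen. At 4 weeks 3 of the 8 were called higher and 0 lower, with a median of 0.256, while of the other 11 cytosolic members 1 was called higher and 3 lower, with a median of −0.090, beside 15.3% of all genes higher and 7.38% lower. At 30 weeks 5 of the 8 were called lower and 1 higher (median −0.358), against 6 lower and 0 higher of the other 11 (median −0.219), beside 18.4% of all genes lower and 20.7% higher. The scaffold gene Aimp1 shared the 4-week direction, with ratios of 0.44 and 0.33 (mean 0.38 ± 0.088, adjusted p = 0.017), and Aimp2 and Eef1e1 were not called at any age.

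The knockout effect itself differed between ages for several members, and here a dye bias that is equal on all arrays cancels. Between 12 and 4 weeks 5 of 35 members were called, 4 cytosolic genes lower at 12 weeks and Lars2 higher, or 14.3% against 6.98% of all genes tested (1.37% higher and 5.61% lower). Dars differed by −1.10 ± 0.201 (adjusted p = 0.0206), Lars by −0.67 ± 0.131 (adjusted p = 0.025), Tars by −0.48 ± 0.095 (adjusted p = 0.026) and Iars by −0.42 ± 0.095 (adjusted p = 0.0374). For these 4 genes no 12-week array reached the 4-week arrays. The count of members called was 0 without replicate 3 of 12 weeks (2.67% of all genes) and 1 without replicate 3 of 30 weeks (2.97%). It was 2 without replicate 1 of 30 weeks (3.2%) and 8 without replicate 2 of 12 weeks (9.61%). With 1 array of 4 weeks left, the cytosolic and mitochondrial medians were −0.030 and −0.011 without replicate 1, and −0.054 and 0.116 without replicate 2. With median centring 0 members were called, and 0.277% of all genes.

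Between 30 and 4 weeks 11 of 35 members were called, 10 lower at 30 weeks and Lars2 higher, or 31.4% against 18.8% of all genes tested (7.09% higher and 11.7% lower). Dars had the largest difference of all members, −1.59 ± 0.201 (adjusted p = 0.00284). Its wild-type level kept between 9.56 and 9.82 on all 8 arrays, while its knockout level was 10.24 and 10.33 at 4 weeks, 8.80 to 9.41 at 12 weeks and 8.70 to 8.92 at 30 weeks. Rars2 differed by −0.96 ± 0.216 (adjusted p = 0.0193), Rars by −0.86 ± 0.173 (adjusted p = 0.0129), Hars by −0.81 ± 0.180 (adjusted p = 0.0191) and Eprs by −0.78 ± 0.172 (adjusted p = 0.0178). Iars2, Tars2, Iars, Tars and Vars were also lower, by between −0.63 and −0.31. Of the other Iars2 probes, 1 had mean ratios of 0.207 at 4 weeks and 0.105 at 30 weeks. The remaining probe had −0.032 and 0.246, but no channel above background at 4 weeks. The Iars2 difference thus depends on the probe. With median centring 17 members were lower and 1 higher, where the median of all genes differed by −0.263. Without replicate 3 of 30 weeks 5 members and 8.56% of all genes were called. With 1 array of 4 weeks left, the cytosolic and mitochondrial medians were −0.262 and −0.188 without replicate 1, and −0.325 and −0.140 without replicate 2. Age, slide, scanner and pool differed together in both comparisons with 4 weeks and cannot be told apart.

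Between 30 and 12 weeks 0 of 35 members were called by limma, against 0.777% of all genes tested (0.32% higher and 0.456% lower). At an unadjusted p under 0.05 there were 14 members, or 40% against 21.2% of all genes. Hars differed by −0.66 (adjusted p = 0.0884) and Fars2 by −0.51 (adjusted p = 0.0782). Without replicate 1 of 12 weeks 11 members were called, and 15% of all genes.

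**Figure D3:**
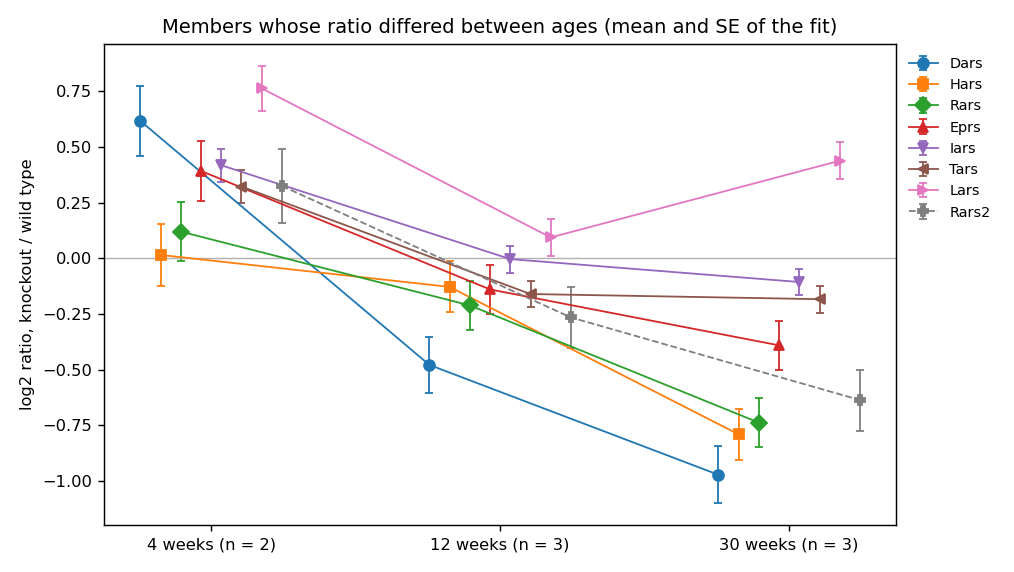
Mean log2 ratio of knockout over wild type with its standard error (y axis) at 4, 12 and 30 weeks (x axis) for 7 cytosolic members and Rars2 (dashed). Dars is at 0.62 at 4 weeks and at −0.97 at 30 weeks. By its brightest probe Lars stays above 0 at each age, while another mRNA probe of it had −0.22 at 30 weeks.

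Lars2 is set apart because its ratio was high on the arrays on which the 18S ribosomal RNA row was high. Its ratios were −0.02 and 0.11 at 4 weeks, 1.26, 1.15 and 0.88 at 12 weeks (mean 1.10 ± 0.142, adjusted p = 0.0217), and 1.25, 2.04 and 1.38 at 30 weeks (mean 1.56 ± 0.142, adjusted p = 0.000719). The 18S ribosomal RNA row, Rn18s, had ratios of 0.10 and −0.12 at 4 weeks, 0.96, 1.21 and 1.32 at 12 weeks, and 1.24, 2.35 and 1.23 at 30 weeks. The 28S row, Rn28s1, had ratios of 0.10 and 0.00 at 4 weeks, 0.72, 0.17 and 0.12 at 12 weeks, and 0.51, 1.05 and 0.76 at 30 weeks. Lars2 and both rows were highest in replicate 2 of 30 weeks, while in replicates 2 and 3 of 12 weeks the 28S row was low beside Lars2 and Rn18s.

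The level of the Lars2 probe was also unlike that of the other members. In knockout nodes its log2 level averaged 12.28 at 4 weeks, 17.99 at 12 weeks and 18.22 at 30 weeks, against 12.23, 16.89 and 16.66 in the wild-type channels at the same ages. In the wild-type channel it was thus 4.66 higher at 12 weeks than at 4 weeks, where the other 34 members shifted by −0.74 to 1.36. Rn18s shifted by 2.57 in the same channel. The ages differ in slide, scanner and scanner software, so these shifts cannot be told apart from the hybridisation. A single probe reads Lars2, at chr9:123310696-123310755 (mm8, plus strand). The middle 30 of its 60 bases are given because their letters occur, as background knowledge, in mammalian 28S ribosomal RNA.
Lars2 probe, middle part: ccttcgatgtcggctcttcctatcattgtg
No ribosomal RNA sequence was compared with it here. Among RefSeq promoter windows of mouse genes (GRCm38.p6), the longest run of letters the whole probe shared was 24 bases, with a window of Gm15564, a long non-coding RNA gene. The share of ribosomal RNA in the Lars2 signal was not tested. Without Lars2, the members called were 8, 0 and 18 at 4, 12 and 30 weeks, and the mitochondrial median was −0.041, −0.066 and −0.199.

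**Figure D4:**
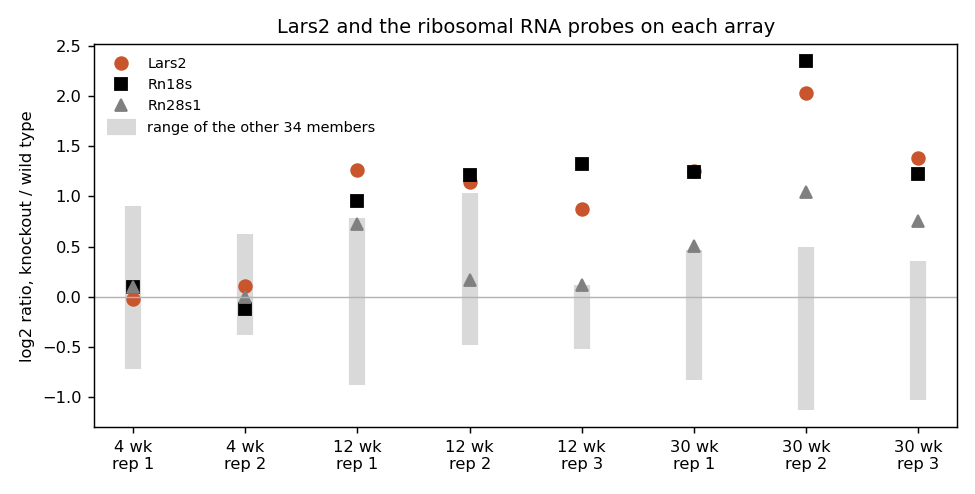
Log2 ratio of knockout over wild type (y axis) of Lars2, Rn18s and Rn28s1 on each of the 8 arrays (x axis), with the range of the other 34 members as grey bars. Lars2 and Rn18s are near 0 at 4 weeks and between 0.88 and 2.35 at 12 and 30 weeks.

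Genes read by several probes did not always give the same answer. Of the 69 member probes 65 passed the filter, and 20 genes had at least 2 of them. The 30 further probes of these genes had the sign of the brightest probe in 21 cases at 4 weeks, 15 at 12 weeks and 17 at 30 weeks. Kind of probe went with the ratio at 30 weeks. The 22 probes that cross an intron had a median of −0.394, and 20 of them lay below 0. The 29 probes in 1 stretch of genome made from RefSeq mRNAs had a median of −0.165, with 22 below 0. The 14 such probes made from other accessions, mostly cDNA clones, had a median of 0.076, with 4 below 0. Among them is an Aars probe that passed the filter through the knockout channel only. The clone-based kind had a median GC content of 36.7%, against 45.0% for both other kinds, and on every array the ratio was lower for probes of higher GC content (correlation of −0.318 to −0.100 across genes, which are not independent replicates). Removing that trend left 17 members lower and 3 higher at 30 weeks, with 37.9% of all genes called.

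Tars gives an example of 2 probes of like base content that differ. Its brightest probe, chr15:11328497-11328556, had mean ratios of 0.32, −0.16 and −0.18 at 4, 12 and 30 weeks, and its other probe, chr15:11332814-11332873 (both mm8, minus strand), had 0.06, −0.33 and −0.91. Both match the same mRNA and have the same GC content.
Tars, brightest probe: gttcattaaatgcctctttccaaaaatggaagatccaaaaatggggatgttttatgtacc
Tars, other mRNA probe: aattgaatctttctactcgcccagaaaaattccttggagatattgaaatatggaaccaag
Tars2 had −0.57 and −1.11 at 30 weeks from its 2 probes, Vars −0.44 and −0.62, and Mars −0.33 and −0.55. The 4 probes of Eprs lay between −0.30 and −0.54. For Lars, called higher at 4 and 30 weeks, the other probes had 0.52 and 0.19 at 4 weeks and 0.91 and −0.22 at 30 weeks, so the sign at 30 weeks depends on the probe. Aars had −0.99 from its other mRNA probe at 30 weeks. Its clone-based probe had 0.37, but passed the filter through the knockout channel only, with 0 wild-type channels above background, so its ratio is no evidence of disagreement. The 2 clone-based Dars probes had 0.48 and 0.07 where the mRNA probes had −0.97 and −0.67. With the mean of all passing probes for each gene, 16 members were called lower and 2 higher at 30 weeks (36% of all genes called). At 4 weeks it was 1 lower and 2 higher (18.9% of all genes called).

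**Figure D5:**
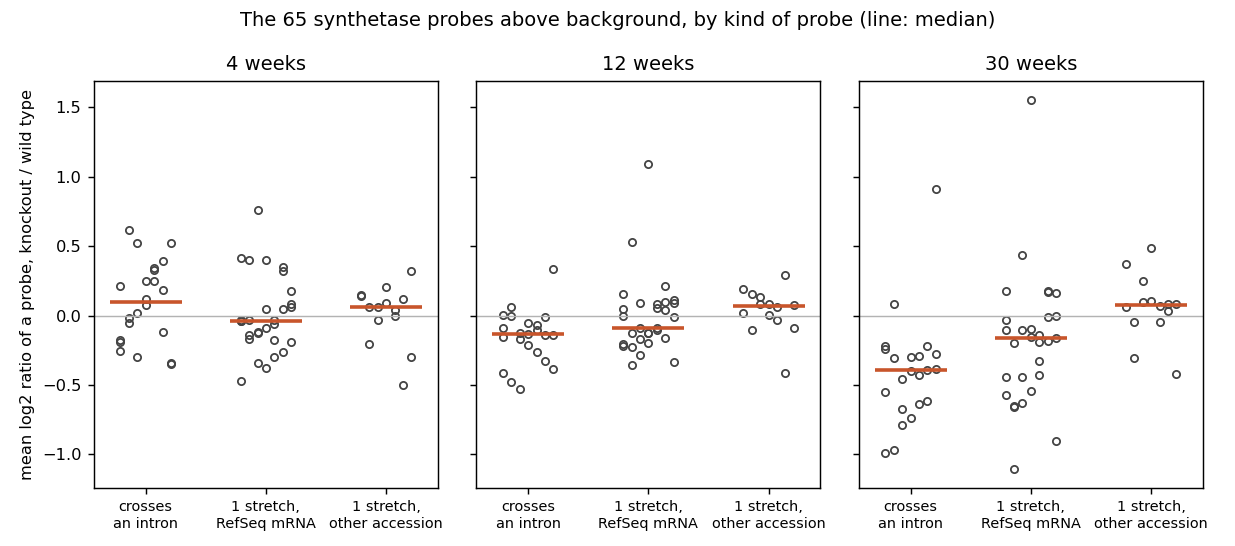
Mean log2 ratio of knockout over wild type (y axis) of each of the 65 member probes above background, by kind of probe (x axis), at 4, 12 and 30 weeks, with the median of each kind as a line. At 30 weeks the medians are −0.394, −0.165 and 0.076 for probes that cross an intron, other RefSeq probes and probes of other accessions.

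Promoter windows, from 250 before to 50 after the start of the gene (RefSeq, GRCm38.p6), were found for 27 of the 35 members, all but Hars, Hars2, Lars, Nars, Pars2, Rars, Vars and Wars. The letters TGATGCAA, the core of the element through which Atf4 and its partners act, were searched on both strands. They occurred in 4 of 13 cytosolic promoters (30.8%), in 0 of 14 mitochondrial promoters and in 1.03% of all 27025 genes with a window. The 4 genes were Aars, Iars, Tars and Yars. They are shown with the motif in capitals, in the direction of the gene: Aars from chr8:111033704-111033763 (plus strand), Tars from chr15:11399659-11399718 (minus strand), Iars from chr13:49682126-49682155 and Yars from chr4:129189895-129189924 (both plus strand).
Aars: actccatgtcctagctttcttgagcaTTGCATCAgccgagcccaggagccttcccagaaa
Tars: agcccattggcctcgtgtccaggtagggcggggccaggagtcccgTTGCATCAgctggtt
Iars: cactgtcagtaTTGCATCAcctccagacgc
Yars: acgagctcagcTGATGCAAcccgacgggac
The motif begins 112 bases before the start in Aars and 15 before it in Tars, and at transcribed base 8 in Iars and 4 in Yars. These 4 genes did not move together at 4 weeks: Iars (0.42) and Tars (0.32) rose, Aars (−0.47) fell, and Yars (−0.19 ± 0.099) was not called. At 30 weeks Aars and Tars were called lower and Iars and Yars were not called. The letters TTCG, part of the DNA motifs that Deaf1 is known to bind, occurred on either strand in 11 of 13 cytosolic promoters (84.6%), 8 of 14 mitochondrial promoters (57.1%) and 47.7% of all genes. So short a motif is common, and a match is no binding site.

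Genes of the amino acid response were mostly not called. At 4 weeks 4 of 32 were lower and 1 higher (median −0.139), beside 7.38% of all genes lower and 15.3% higher. Slc7a5, a subunit of a transporter for large neutral amino acids, had ratios of −1.54 and −1.01 (mean −1.28 ± 0.137, adjusted p = 0.000903). Slc3a2, its partner subunit, was lower by −0.47 (adjusted p = 0.0207). Shmt2, a mitochondrial enzyme of serine and glycine metabolism, was lower by −0.36 (adjusted p = 0.0158). Atf4 itself was also lower, with ratios of −0.52 and −0.30 (mean −0.41 ± 0.126, adjusted p = 0.0472). Eif2ak4, the kinase that senses uncharged transfer RNA, was higher by 0.47 (adjusted p = 0.026). At 30 weeks 6 of 32 were lower and 2 higher (median −0.012), beside 18.4% of all genes lower and 20.7% higher, so the share lower was near the background. Atf4 had ratios of −0.75, −0.83 and −0.72 (mean −0.76 ± 0.103, adjusted p = 0.0014), and Gcn1, which activates that kinase, was also lower (−0.49, adjusted p = 0.00227). Psph, the last enzyme of serine synthesis (0.90, adjusted p = 0.00156), and Vldlr, a lipoprotein receptor (0.92, adjusted p = 0.000791) were higher. Asns, the asparagine synthetase gene, had ratios of −0.23, 3.07 and −0.32 and was high only in replicate 2, the array with high acinar genes.

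A list of translation elongation factors, which carry charged transfer RNA to the ribosome and move it on, also held Eef2k, the kinase that inhibits Eef2, and the methyltransferase gene Eef1akmt1. At 30 weeks 6 of its 8 genes were called lower, Eef2k among them (−0.34, adjusted p = 0.0123), and 1 higher, with a median of −0.441. Of all genes tested 18.4% were called lower and 20.7% higher at that age. Eef2, which moves the ribosome along, had ratios of −1.07, −1.10 and −1.08 (mean −1.08 ± 0.157, adjusted p = 0.00176). Eef1g (−0.77, adjusted p = 0.00293), Eef1b2 (−0.72, adjusted p = 0.00279) and Eif5a (−0.54, adjusted p = 0.00125) were also lower. Eef1a1, which delivers the charged transfer RNA, was instead higher at all 3 ages, by 0.55 at 4 weeks, 0.49 at 12 weeks and 0.34 at 30 weeks (adjusted p = 0.00332, 0.0256 and 0.00558).

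Other genes of mitochondrial translation and of transfer RNA were called in both directions. The mitochondrial list had more genes lower than higher at 30 weeks, where all genes tested had more higher than lower. Of all genes tested 15.3% were called higher and 7.38% lower at 4 weeks, and 20.7% higher and 18.4% lower at 30 weeks. A list of 30 genes held mostly genes of mitochondrial translation and transfer RNA. Of these 30, 5 were higher and 4 lower at 4 weeks, and 5 higher and 10 lower at 30 weeks (median −0.099). The list also held Tfam, Tfb2m and Polrmt, which act in mitochondrial transcription. Tfam (0.71, adjusted p = 0.00402) and Tfb2m (0.40, adjusted p = 0.00986) were among those higher at 30 weeks, and Polrmt was not called. At 30 weeks Gfm1, the mitochondrial elongation factor G, was lower (−0.43, adjusted p = 0.00255), and Gtpbp3, which modifies mitochondrial transfer RNA, was higher (0.61, adjusted p = 0.000926). Of 31 genes of transfer RNA processing and modification 7 were higher and 4 lower at 4 weeks, and 7 were called in each direction at 30 weeks. Trnt1, which adds the CCA end to which the amino acid is joined, was higher at 4 weeks (0.83, adjusted p = 0.00137) and at 30 weeks (0.45, adjusted p = 0.00412).

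Markers of cell types in the node were counted beside the shares of all genes called, 18.4% lower and 20.7% higher at 30 weeks, and 7.38% lower and 15.3% higher at 4 weeks. At 30 weeks 5 of 8 T cell markers, 5 of 8 macrophage markers, 3 of 8 B cell markers and 3 of 9 plasma cell markers were called lower, and 1 B cell marker was called higher. The median T cell marker lay between −0.41 and −0.38 on the 3 arrays of 30 weeks and the median macrophage marker between −0.39 and −0.36. At 4 weeks 3 of 8 B cell markers were higher and 1 of 8 T cell markers was lower. Of the 8 macrophage markers 2 were higher and 2 lower at that age. Markers of fibroblastic reticular cells, the stroma of the node, were higher for 3 of 8 at 4 weeks and 2 of 8 at 30 weeks, and of 10 genes of dividing cells 2 were higher at 4 weeks, and 2 were higher and 1 lower at 30 weeks. The median of 8 fat cell markers was −0.97 and −0.36 on the arrays of 4 weeks, −1.26, −1.10 and −0.06 at 12 weeks, and −0.05, −0.12 and 0.26 at 30 weeks, with 1 marker called, lower at 4 weeks. The part of the cell makeup in the synthetase ratios was not tested. Of 18 genes induced by interferon gamma, 4 were higher and 1 lower at 4 weeks, and 2 were higher and 4 lower at 30 weeks.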

How the data were processed

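Pancreatic lymph node RNA of 8 Deaf1 knockout mice, each against a wild-type pool, was measured on Agilent arrays of 2 colours. Per the file headers, the deposited scanner files hold mean spot and local background brightness and processed signals (intensity), and red over green as a log10 ratio of the processed signals, written by Feature Extraction 9.5.3.1 (4 weeks) and 10.2.1.3 (12 and 30 weeks). The deposited series matrix made by the authors holds log2 ratios of red over green processed signal, by comparison with the scanner values, with no centring and with red as knockout per the labels. Its software is not given in the sources used here.

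Intensities were corrected with normexp (offset 50) and normalised by loess on each array, control spots having no weight, in limma 3.58.1 (R 4.3.3). Flagged outlier spots were left out, and spots of a probe were averaged. The filter kept 27464 probes that passed the scanner's background test in 1 channel on every array of some age. Each gene took its brightest probe (18410 genes, 27 values missing). Of the probes, 24324 were named through their accession, 6283 through a current symbol and 2426 through a synonym in a RefSeq table, and 8072 kept the file's name; the 69 member probes were taken by the file's name. The 8 arrays entered a single fit with a mean for each age (residual degrees of freedom 5, prior 3.4), and each age against 0 and each difference between ages was tested two-sided, with Benjamini-Hochberg adjustment within a contrast. Levels are loess-normalised and quantile-scaled between arrays. The fit was tested on simulated data.

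The members, gene lists and tests were chosen with earlier results of these data known. Members given with full statistics are, in each contrast, up to 5 called higher and 5 called lower with the largest ratios of equal sign on every array (between ages, only where the arrays did not overlap), and from each companion list up to 4 genes with the smallest p. Asns was named because 1 array stood apart, and some further genes to describe the content of their list. Alternatives were other background, normalization, filter, probe and GC settings, slide and replicate blocks, and single arrays left out. Replicates are separate mice per the labels. No intensity was saturated.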

Additional observations from a re-analysis of the deposited data

Results flagged for a closer look

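These members are listed because the knockout effect differed between ages by the test of the difference itself (limma, later age minus earlier). Between 12 and 4 weeks the difference was −1.10 for Dars, −0.67 for Lars, −0.48 for Tars, −0.42 for Iars and 1.05 for Lars2. Between 30 and 4 weeks it was −1.59 for Dars, −0.96 for Rars2, −0.86 for Rars, −0.81 for Hars, −0.78 for Eprs, −0.63 for Iars2, −0.54 for Tars2, −0.52 for Iars, −0.51 for Tars, −0.31 for Vars and 1.51 for Lars2. All were called over all genes tested, each by the brightest probe of its gene. In both comparisons the 4-week arrays also differ in slide, scanner, software and pool, so age cannot be told apart from these. Lars2 moved with the ribosomal RNA row Rn18s, whose ratio averaged −0.01 at 4 weeks, 1.17 at 12 weeks and 1.60 at 30 weeks, and the part of ribosomal RNA was not tested.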

How the results depend on the processing

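Members called in the comparisons at 4, 12 and 30 weeks, and between 12 and 4, 30 and 12, and 30 and 4 weeks, were 8, 1, 19, 5, 0 and 11. Median centring in place of loess gave 25, 26, 6, 0, 0 and 18 (53%, 56%, 28%, 0.277%, 0.038% and 21.7% of all genes), and no normalization gave 34, 33, 3, 1, 3 and 25 (80.2%, 77.1%, 21.6%, 0.516%, 2.82% and 39.4%). At 4 weeks these scalings moved the median of all genes to 0.489 and 1.228, so that Aars, Sars, Ears2 and Farsa stood at 0.44, 0.54, 0.26 and 0.49 with median centring and at 1.18, 1.28, 1.00 and 1.23 with no normalization. Relative to that median they lay at −0.05, 0.05, −0.22 and 0.0049 under median centring. Slide as a random block (estimated correlation −0.259) gave 15, 18, 25, 11, 11 and 18 (35.9%, 48.8%, 49%, 24.3%, 12.7% and 32.7% of all genes). At 4 weeks 13 members were called with processed signals and loess (34.9% of all genes) and 13 with the 4-week arrays alone (26.3%). The mean of probes gave 3 (18.9%) and removal of the GC trend 5 (20%). At 12 weeks there were 0 with a trended robust fit (0.0543%), 0 with the 12-week arrays alone (0.0326%) and 0 without Lars2. Leaving out replicate 2 of 12 and of 30 weeks gave 4 (10%). Between 12 and 4 weeks there were 3 with the scanner log ratio (11.7%), the series matrix (11.9%) or a normexp offset of 16 (7.71%). The mean of probes gave 2 (4.3%) and the arrays of those ages alone 1 (0.994%). The 30-week arrays alone gave 24 at that age (46.8%). Leaving out single arrays gave 0 to 11, 0 to 4, 12 to 22, 0 to 8, 0 to 11 and 1 to 14 members in the 6 comparisons. With 1 array of 4 weeks left, that array was assumed to vary like the other ages.

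The cytosolic minus mitochondrial median, 0.021, −0.113 and −0.114 at the 3 ages, became 0.21, 0.12 and −0.0070 with median centring, and the same with no normalization. At 30 weeks it was −0.053 with processed signals, −0.050 with the scanner log ratio or series matrix, −0.16 with the mean of probes, −0.17 with the GC trend removed and −0.020 in replicate 1 alone (slide 2). Leaving out single arrays gave −0.041 to 0.060, −0.14 to 0.0022 and −0.10 to −0.088. The cause of these moves was not tested. Of 612 values of single members under an alternative, 479 kept direction and call, 125 kept direction only and 8 changed sign. All 8 were Aars, Sars, Ears2 and Farsa under the 2 scalings above, which moved the median of all genes. The shift was not equal for all genes: under median centring Sars and Farsa lay above that median, and Aars and Ears2 below it. Of 2192 counts over companion lists and markers, 618 moved by over 1.5 times, or to or from 0.

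With the replicate number as a block, 0 members were called between 12 and 4 weeks (1.95% of all genes) and 0 between 30 and 12 weeks (0%). Between 30 and 4 weeks there were 6 (11.6%). Same-numbered arrays of different ages deviated from their group means with correlations of −0.077 to 0.240. With so few arrays to an age the deviations are tied to each other, so this cannot decide whether the numbers pair the samples. The alternative without Lars2 was chosen after seeing the data. Dim spots limit precision: the share of probes passing the background test was 46.8% to 71.4% for knockout RNA, against 37.2% to 62.6% for wild-type RNA.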
